A study of Mus musculus with 3 samples.

Results

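HOX genes encode homeodomain transcription factors and lie in 4 clusters, A to D, in the mouse genome. The 38 HOX genes described here were chosen by name, not by any value, out of 21883 protein-coding genes of the RefSeq table, and any other HOX gene was not analysed here. A peak of open chromatin was assigned to a gene when it overlapped the gene body or 2 kb either side, and each peak was counted once in a sum. The data came from mouse tumours made by piggyBac in utero electroporation, in which transposon plasmids are brought into cells of the embryonic brain, and the series title concerns mutant IDH, chromatin binding by PDGFB and chromosome instability. Open chromatin was read in single nuclei by ATAC-seq, an assay that counts, per barcoded nucleus, where the enzyme Tn5 has cut. There were 3 libraries with 1 in each group: Control, overexpression of PDGFB-WT and overexpression of PDGFB-NLS. The samples are all labelled glioma, Control included. The labels used here give no other allele, age, strain or number of animals, do not say which plasmids Control received, and do not spell out NLS.

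Within a cluster, the number in a HOX gene's name follows its order along the chromosome, and genes with the same number in different clusters are paralogs. In the embryo low-numbered genes act towards the head and high-numbered genes towards the tail, and the forebrain and midbrain develop without HOX expression. Retinoic acid and CDX factors switch the clusters on, Polycomb complexes keep them closed, trithorax complexes keep them active, and PBX and MEIS proteins bind DNA together with HOX proteins.

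After barcodes under 200 counts were left out, Control kept 2226 barcodes, PDGFB-WT kept 7441 and PDGFB-NLS kept 10996. Their median depths were 13054, 821 and 2767.5 counts, in that order. The HOX windows held 8194, 776 and 8444 counts in these libraries. Levels are given as CPM, counts per 1000000 counts in the regions called in all 3 libraries, which held 81.6%, 96.3% and 78.8% of each library's counts. Peaks were listed library by library, so a region absent from a list has an unknown count there, not a count of 0. With 1 library per group no difference between groups could be tested. All intervals are exact 95% intervals and cover counting error only. Barcode sequences shared between libraries numbered 22 for Control and PDGFB-WT, 45 for Control and PDGFB-NLS, and 118 for PDGFB-WT and PDGFB-NLS.

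Open chromatin in the HOX clusters was made up of many regions of ordinary level. Merging the peaks of the 3 libraries gave 65 HOX regions, 21 in cluster A, 14 in cluster B, 12 in cluster C and 18 in cluster D. Control had a peak in 52 of them (80%), PDGFB-NLS in 51 (78.5%) and PDGFB-WT in 11 (16.9%). Over all 147229 regions of the genome the shares were 72.5%, 85.6% and 38.9%. The HOX share was thus near the genome's in Control, a little above, and in PDGFB-NLS, a little below. It was well below in PDGFB-WT, the library of lowest depth. Only 11 HOX regions (16.9%) were called in all 3 libraries, against 32.2% of all regions. Another 27 (41.5%, against 29.98%) were called in Control and PDGFB-NLS, 14 (21.5%, against 9.82%) in Control only, 13 (20%, against 21.3%) in PDGFB-NLS only, and none in PDGFB-WT only (against 4.09%). The called HOX regions had a median of 5.14 CPM in Control, 9.34 in the PDGFB-WT library and 5.33 in the PDGFB-NLS library, where all regions had 4.46, 9.93 and 3.99. The highest called HOX region reached 19.1, 21.2 and 22.0 CPM, and the highest of all regions 4501, 1640 and 2200 CPM. These maxima are over very unlike numbers of regions, so they do not show that HOX regions lack strong sites.

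Which HOX regions were called in PDGFB-WT went with their level in Control. The 11 called there had a median of 8.999 CPM in Control (3.22 to 19.1), and the 41 others called in Control had a median of 4.81 CPM (2.06 to 10.8). The part of PDGFB-WT's lower depth in this was not tested.

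**Figure D1:**
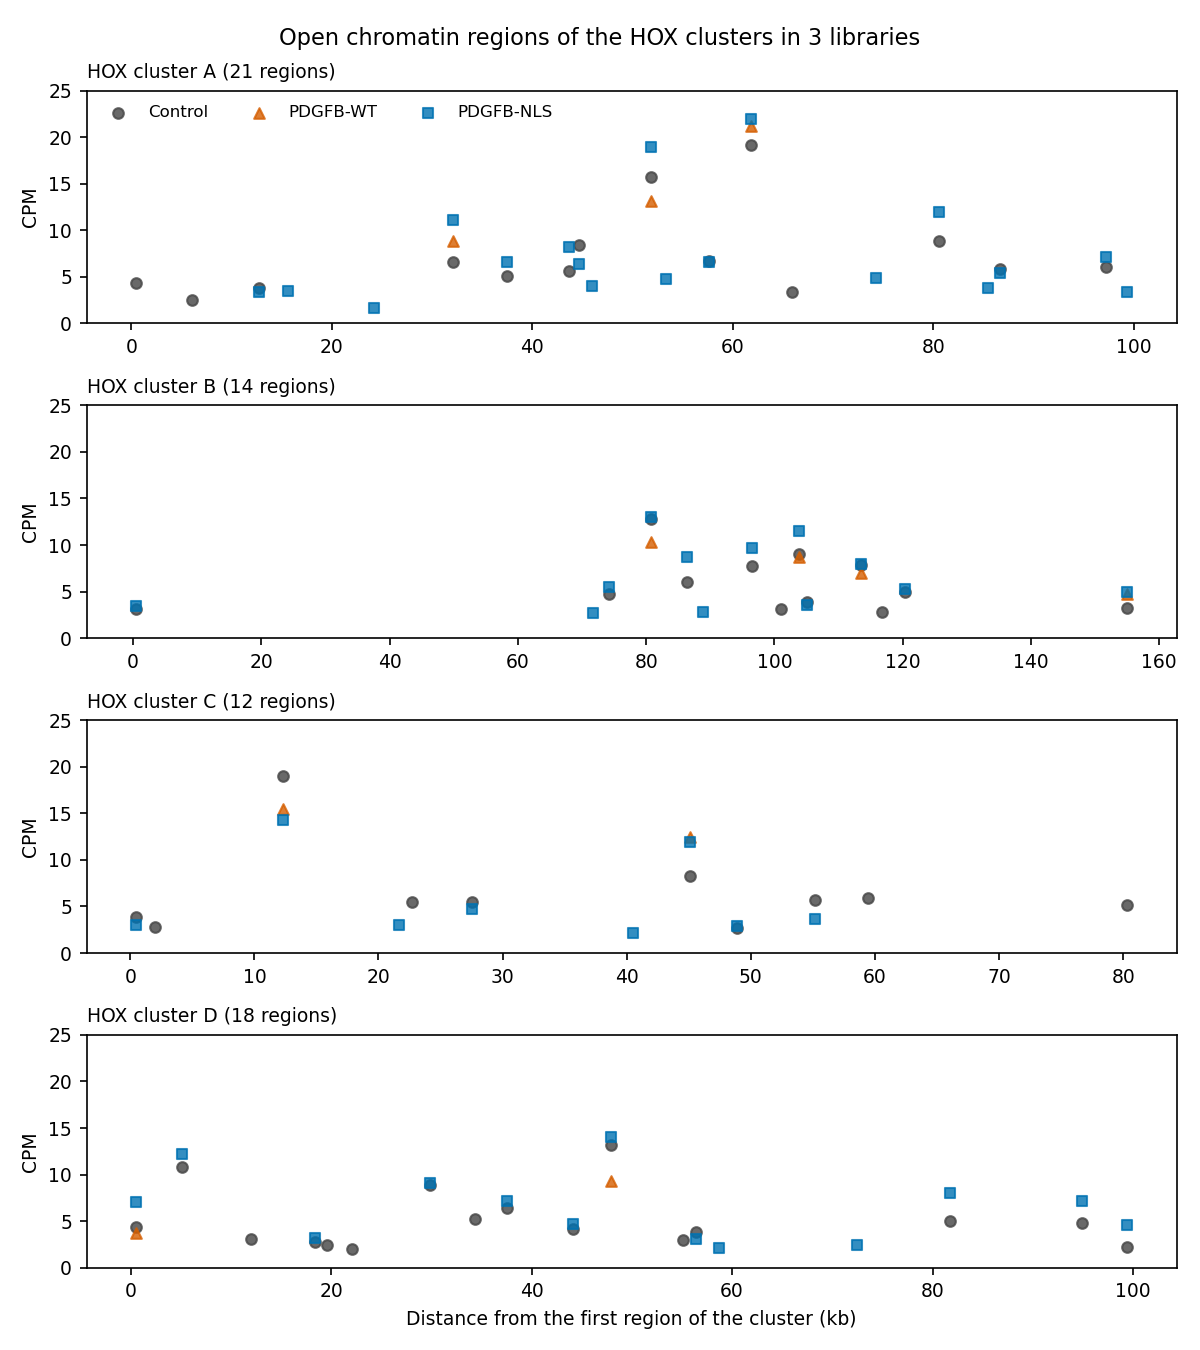
HOX regions along the 4 clusters: the x axis is the distance in kb from the first HOX region of each cluster and the y axis is CPM. Marks show each library in which the region was called. PDGFB-WT marks appear at 11 of the 65 regions, and the highest mark, 22.0 CPM in PDGFB-NLS, lies between Hoxa7 and Hoxa9.

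The 11 shared regions covered all 4 clusters. In cluster A (chromosome 6) the region between Hoxa7 and Hoxa9 at chr6:52221291-52222237 had 19.1 CPM in Control, 21.2 in the PDGFB-WT library and 22.0 in the PDGFB-NLS library (493, 143 and 540 counts). The region between Hoxa6 and Hoxa7 at chr6:52211268-52212177 had 15.7, 13.2 and 18.9 CPM. A region on Hoxa4, a gene of hindbrain and neck level patterning, had 6.56, 8.89 and 11.1 CPM. In cluster B (chromosome 11) the region on Hoxb8, whose lineage includes some microglia, had 12.8, 10.4 and 13.03 CPM, and the region on Hoxb6 had 8.999, 8.74 and 11.5 CPM. In cluster C (chromosome 15) the region on Hoxc10, a gene of lumbar spinal cord patterning, had 19.01, 15.4 and 14.2 CPM, and a region on Hoxc6 had 8.22, 12.4 and 11.97 CPM. In cluster D (chromosome 2) the region between Hoxd8 and Hoxd4 had 13.1, 9.34 and 14.1 CPM. The region on the start of Hoxd13, a gene of digit formation, had 4.34, 3.70 and 7.04 CPM. In these 11 regions the highest and the lowest library differed by less than 2-fold at every one.

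Some HOX regions lay on a gene start. RefSeq promoters of GRCm38.p6, the assembly of mm10, run from 250 bases before to 50 bases after a start, and 24 entries were found for 22 of the 38 members. Of these 9 overlapped a HOX region, those of Hoxa3, Hoxa5, Hoxa10, Hoxb4, Hoxc4, Hoxd1, Hoxd3, Hoxd9 and Hoxd13. Members without an entry could not be placed, and the share of all promoters that overlap a region was not measured. Written 5′ to 3′ with every CG in capitals are the promoter of Hoxd13 (chr2:74667975-74668274, + strand), whose start lay in a region called in all 3 libraries, and those of Hoxb4 (chr11:96318017-96318316, + strand), Hoxd1 (chr2:74762730-74763029, + strand) and Hoxa10 (chr6:52240805-52241104, - strand), whose regions were called in Control and PDGFB-NLS and whose loci differed between classes of nuclei.
Hoxd13: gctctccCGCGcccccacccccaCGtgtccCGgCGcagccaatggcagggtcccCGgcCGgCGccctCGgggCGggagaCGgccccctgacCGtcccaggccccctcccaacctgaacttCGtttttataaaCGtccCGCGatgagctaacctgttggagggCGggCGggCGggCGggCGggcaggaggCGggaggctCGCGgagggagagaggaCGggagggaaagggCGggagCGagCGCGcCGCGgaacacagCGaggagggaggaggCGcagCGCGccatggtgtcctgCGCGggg
Hoxb4: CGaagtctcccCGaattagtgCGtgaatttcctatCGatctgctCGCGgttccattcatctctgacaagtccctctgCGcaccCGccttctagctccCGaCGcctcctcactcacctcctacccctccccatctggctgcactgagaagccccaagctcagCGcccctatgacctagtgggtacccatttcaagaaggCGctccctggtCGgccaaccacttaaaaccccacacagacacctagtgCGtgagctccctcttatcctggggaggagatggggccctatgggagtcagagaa
Hoxd1: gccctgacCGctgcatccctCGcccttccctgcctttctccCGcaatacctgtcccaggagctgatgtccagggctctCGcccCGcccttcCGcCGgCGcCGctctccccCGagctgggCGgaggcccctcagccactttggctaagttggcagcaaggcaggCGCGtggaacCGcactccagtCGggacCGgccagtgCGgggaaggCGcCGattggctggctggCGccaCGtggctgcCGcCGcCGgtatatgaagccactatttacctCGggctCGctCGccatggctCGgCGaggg
Hoxa10: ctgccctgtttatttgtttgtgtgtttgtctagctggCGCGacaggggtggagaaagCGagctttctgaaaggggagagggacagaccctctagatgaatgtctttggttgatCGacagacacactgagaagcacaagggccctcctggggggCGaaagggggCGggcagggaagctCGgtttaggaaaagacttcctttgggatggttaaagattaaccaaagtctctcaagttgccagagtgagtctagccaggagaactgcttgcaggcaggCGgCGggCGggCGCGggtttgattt
The letters show how unlike these starts were. The Hoxd13 promoter held 37 CG pairs at 74.3% G and C and 187 of its bases lay in the region, the Hoxd1 promoter held 29 CG pairs and lay wholly in its region, and the Hoxb4 and Hoxa10 promoters held 14 and 12. Member promoters had a median of 14.5 CG pairs (4 to 45), against 7 over all 32851 promoters, with a median of 20 for the 9 on a region and 13 for the others. The GC box GGGCGG, searched on both strands, was in 10 of the 24 member entries (41.7%) and in 35.7% of all promoters. It occurred 7 times in the Hoxd13 promoter. TATAAA was in 4 entries (16.7%, against 13.6%), those of Hoxb8, Hoxd4 and Hoxd13 and another Hoxa10 entry, at chr6:52234890-52235189. That Hoxa10 entry lay on no HOX region, and the printed Hoxa10 promoter holds no TATAAA. The PBX-HOX motif TGATNNAT was in 4 entries (16.7%, against 8.85%), those of Hoxa2, Hoxb1, Hoxb8 and Hoxd11.

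The clusters also hold 6 microRNA genes, which are shown because they sit within the clusters and 3 of them lay within 1 kb of a HOX region. The mature RNAs are from RefSeq, with the seed, bases 2 to 8, in capitals.
miR-10a-5p: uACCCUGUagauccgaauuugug
miR-10b-5p: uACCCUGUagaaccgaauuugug
miR-615-3p: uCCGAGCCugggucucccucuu
miR-196a-5p: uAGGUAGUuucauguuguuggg
miR-196b-5p: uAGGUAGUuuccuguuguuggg
The seed ACCCUGU is shared by miR-10a-5p in cluster B (chr11:96317186-96317208) and miR-10b-5p in cluster D (chr2:74726074-74726096). Mir10a lay 947 bp from the Hoxb4 region, which had 4.93 CPM in Control and 5.33 CPM in PDGFB-NLS. Mir10b lay 299 bp from a region called in PDGFB-NLS only, at 2.08 CPM. Mir615 in cluster C lay 811 bp from a region called in Control only, at 5.86 CPM. The 3 genes of the AGGUAGU seed, Mir196a-1, Mir196a-2 and Mir196b, lay 4221, 2136 and 3567 bp from the nearest HOX region.

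By gene, 34 of the 38 members had a peak in Control, 13 in the PDGFB-WT library and 32 in the PDGFB-NLS library, and 13 had one in all 3 libraries. Of all genes 76.3%, 70.5% and 77.6% had a peak in these libraries. The whole of cluster A was marked in Control (10 of 10 members), as was cluster D (9 of 9), with 9 of 10 in cluster B and 6 of 9 in cluster C. PDGFB-NLS had 9 members with a peak in A, 9 in B, 5 in C and 9 in D, and PDGFB-WT had 3 in A, 6 in B, 2 in C and 2 in D. No library had a peak at Hoxb1, Hoxc12 or Hoxc13. Hoxc8 had a peak in PDGFB-NLS only, and Hoxa2, Hoxc4 and Hoxc5 in Control only. Neighbouring windows overlap, and the models of Hoxa3, Hoxb3 and Hoxd3 span 44009, 40830 and 36279 bp, so that their windows take in peaks of other members. Summed over whole windows, members with a peak had a median of 11.3, 9.34 and 12.03 CPM. All genes with a peak had 57.0, 52.5 and 57.4 CPM. These sums are not scaled to window length, and the part of gene length in the difference was not tested. Per called region the HOX medians were 5.14, 9.34 and 5.33 CPM, against 4.46, 9.93 and 3.99 CPM for all regions.

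In PDGFB-NLS against Control, most HOX members past the minimum were a little higher by counts. Of 26 members with 100 counts or more in both libraries, 17 lay above the median of all genes, and the median log2 ratio of the 26 was 0.24 relative to it. On fragments 11 of 18 lay above, with a median of 0.21. With each entry capped to 0 or 1, 10 of 18 lay above, with a median of 0.05. Members that share peaks, such as Hoxa5 and Hoxa6 with the same 360 and 458 counts, are not separate in these numbers. All log2 ratios of members below are relative to the median of all genes, which was 0.02 in this comparison. Past 1.5-fold higher were 6 members, Hoxa4, Hoxa7, Hoxa10, Hoxa13, Hoxb7 and Hoxd1, where 7.96% of all genes were. Past 1.5-fold lower were 2 members, Hoxd8 and Hoxd9, where 1.55% of all genes were. Counted as fragments or capped to 0 or 1, 18 members reached the minimum and Hoxa10 was the 1 past 1.5-fold higher, at 0.96 and 0.72, with Hoxd8 and Hoxd9 still lower and the 5 other higher members under the minimum. The shares of all genes on fragments and when capped are not given. Of these 8 members, PDGFB-WT had a peak at Hoxa4 and at no other. Over the regions called in both libraries, an alternative chosen after seeing the data, Hoxa4 and Hoxd1 were the 2 of 25 members past 1.5-fold higher (4.68% of all genes), none was past 1.5-fold lower (0.862%), and the median was 0.20 with 22 above.

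At Hoxa4 and Hoxd1 every peak of the window was called in both libraries, so the shared regions hold the same counts and are no separate check. Hoxa4 had 8.89 CPM in PDGFB-WT and went from 6.56 CPM in Control to 11.1 CPM in PDGFB-NLS, a log2 ratio of 0.75 (0.35 to 1.14). Hoxd1, a gene of pain-sensing neurons in the mouse, went from 7.06 to 11.8 CPM, a log2 ratio of 0.73 (0.35 to 1.11). These 2 intervals stayed above 0.

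The highest ratio was that of Hoxa10, a gene of lumbar and uterine patterning, at 0.92 (0.60 to 1.26), from 8.81 to 16.9 CPM, which was 0.45 in shared regions. Hoxb7 had 0.90 (0.51 to 1.30), from 6.09 to 11.5 CPM, and 0.51 in shared regions. Hoxa13, a limb gene, had 0.77 and Hoxa7 had 0.73, and in shared regions these were 0.24 and -0.03. Each of these 4 windows had 1 peak in Control and 2 in PDGFB-NLS, and the second peak, where it was called in PDGFB-NLS only, is not in the shared value.

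On the lower side the same held in reverse. Hoxd8 had -0.71 (-1.08 to -0.34), from 11.6 to 7.21 CPM, and Hoxd9 had -0.65 (-0.997 to -0.32), from 14.1 to 9.08 CPM. In shared regions they had 0.17 and 0.04, since both windows hold the same peak called in Control only, 1665 bp from Hoxd8. Below the minimum of 100 counts in PDGFB-NLS, Hoxd10 (186 and 79 counts), Hoxd11 (213 and 79) and Hoxc11 (171 and 75) had log2 ratios of -1.18, -1.38 and -1.14, and in shared regions 0.23, 0.23 and -0.34.

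**Figure D2:**
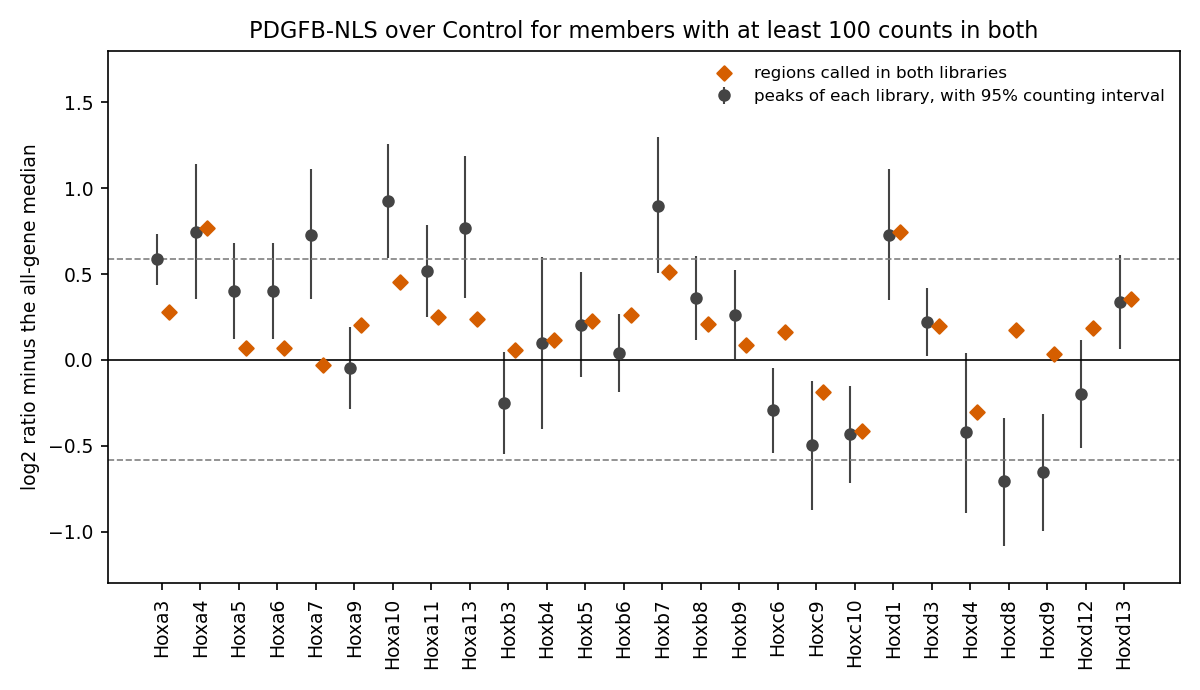
Log2 ratio of PDGFB-NLS over Control for the 26 members with at least 100 counts, relative to the median of all genes. Grey circles with 95% counting intervals use each library's own peaks, orange diamonds use regions called in both, and dashed lines mark 1.5-fold: 6 circles lie past the upper line and 2 past the lower, and 2 diamonds lie past the upper line.

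Cluster C stood on the other side of the median from the rest. Relative to the median of all genes, its summed log2 ratio of PDGFB-NLS over Control was -0.50 (-0.66 to -0.35), with 45.8 against 64.2 CPM over 7.12 and 8.98 kb called. Cluster A had 0.37 (0.27 to 0.48), with 133.6 against 102.0 CPM over 15.7 and 12.7 kb. Cluster B had 0.17 (0.05 to 0.30), with 79.3 against 69.4 CPM, and cluster D had 0.03 (-0.09 to 0.15), with 85.1 against 82.3 CPM. Over the 38 regions called in both, cluster A had 0.24 (0.12 to 0.35), B 0.22 (0.09 to 0.36), D 0.28 (0.15 to 0.41) and C -0.14 (-0.31 to 0.03). Within cluster C the Hoxc10 peak, at 19.01 CPM in Control and 14.2 CPM in PDGFB-NLS, had a log2 ratio of -0.42 (-0.70 to -0.14) before the median is taken off, and the Hoxc6 region at chr15:102998865-102999856 had 0.54 (0.18 to 0.90). The Hoxc6 region at chr15:103009013-103009962 had -0.61 (-1.15 to -0.09). So of the shared cluster C regions, 2 had intervals below 0 and 1 had an interval above 0. All 4 clusters together had 343.7 CPM in PDGFB-NLS and 317.8 CPM in Control, a log2 ratio of 0.10 (0.04 to 0.16), and counting each peak and barcode as 0 or 1 turned it to -0.11 before the median is taken off.

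By paralog position, positions 1 to 3 had the highest ratio over own peaks, and single positions showed no order. Positions 1 to 3 had 107.2 CPM in Control, 43.1 in the PDGFB-WT library and 133.0 in the PDGFB-NLS library, and the log2 ratio of PDGFB-NLS over Control was 0.29 (0.19 to 0.40). Positions 4 to 8 had 121.0, 40.5 and 128.8 CPM and a ratio of 0.07 (-0.03 to 0.17). Positions 9 to 13 had 139.95, 50.7 and 140.0 CPM and a ratio of -0.02 (-0.11 to 0.08). Over regions called in both, the ratios were 0.28 (0.18 to 0.39), 0.20 (0.09 to 0.31) and 0.08 (-0.02 to 0.19) for these 3 groups. Over the regions called in all 3 libraries positions 4 to 8 were highest, at 0.38, with 0.30 for positions 1 to 3 and 0.03 for positions 9 to 13. Single positions ran from -1.04 at position 2 to 0.81 at position 7 over own peaks, with 0.73 at position 1 and 0.43 at position 13, and position 2 was 0.63 over regions called in both. In cluster B positions 1 to 3 had -0.06 and positions 9 to 13 had 0.24 over own peaks. In cluster A positions 1 to 3 had 0.38, below 0.57 at positions 4 to 8 and 0.42 at positions 9 to 13. In cluster D positions 1 to 3 had 0.33, with -0.59 and -0.34 for the other groups. The long Hoxa3 window, with peaks also of Hoxa4, Hoxa5, Hoxa6 and Hoxa7, had 45.1 CPM in Control and 68.4 CPM in PDGFB-NLS of the sums for positions 1 to 3. A peak in windows of different positions counts in each, so these groups share peaks.

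PDGFB-WT could be compared at few members. Hoxa3, Hoxa9 and Hoxc10 were the 3 with at least 100 counts in every library. Hoxa9, a gene of blood progenitors and leukaemia, had 22.5 CPM in Control, 21.2 in the PDGFB-WT library and 22.0 in the PDGFB-NLS library, with log2 ratios of 0.12 for PDGFB-WT over Control, -0.05 for PDGFB-NLS over Control and -0.17 for PDGFB-NLS over PDGFB-WT. Its second Control peak is in neither other library, and in the regions called in both libraries compared the ratios were 0.24, 0.20 and -0.01, so the sign of PDGFB-NLS over Control turned. Hoxc10 had 19.01, 15.4 and 14.2 CPM, with ratios of -0.10, -0.43 and -0.34. Hoxa3, which acts in the pharyngeal arches, had 45.1, 22.1 and 68.4 CPM over 6, 2 and 10 peaks.

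Its ratio of -0.83 for PDGFB-WT over Control became 0.08 over the regions called in both, and its 1.41 for PDGFB-NLS over PDGFB-WT became 0.38. Hoxa3 was thus the only 1 of these 3 past 1.5-fold lower in PDGFB-WT against Control (6.79% of all genes), with none past 1.5-fold higher (7.91%). It was also the only 1 past 1.5-fold higher in PDGFB-NLS against PDGFB-WT (6.26%), with none lower (3.64%). Over regions called in both, no member was past 1.5-fold in either comparison, where 9.85% of genes were higher and 1.86% lower in PDGFB-WT against Control, and 1.39% higher and 4.91% lower in PDGFB-NLS against PDGFB-WT. The comparisons share libraries and are not independent.

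The clusters summed over each library's own peaks were lower in PDGFB-WT, and over shared regions they were not. Own peaks gave 115.0 CPM over 10.4 kb in PDGFB-WT and 317.8 CPM over 47.0 kb in Control, which is 11.04 and 6.76 CPM per kb. The log2 ratio was -1.26 (-1.41 to -1.11) relative to the median of all genes, which was -0.20. In the 11 regions called in all 3 libraries the sums were 119.0 CPM in Control, 115.0 in the PDGFB-WT library and 136.8 in the PDGFB-NLS library, and the ratio of PDGFB-WT over Control was 0.04 (-0.12 to 0.20). There cluster A had 0.16 (-0.11 to 0.42), B -0.00 (-0.32 to 0.31), C 0.12 (-0.21 to 0.45) and D -0.33 (-0.82 to 0.13). PDGFB-NLS over PDGFB-WT had 0.18 (0.02 to 0.34) there, and 0.63 (0.17 to 1.11) in cluster D, from 13.04 to 21.1 CPM in its 2 shared regions.

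To see which nuclei carried the HOX counts, barcodes were clustered in each library alone without the HOX regions and named from marker gene loci. Control gave 516 microglia or macrophage-like, 507 endothelial-like, 475 astrocyte-like, 362 oligodendrocyte-like, 127 mural or fibroblast-like, 56 oligodendrocyte precursor cell (OPC)-like and 28 inhibitory neuron-like barcodes. PDGFB-NLS gave 2888 astrocyte-like, 2878 microglia or macrophage-like, 2271 oligodendrocyte-like, 1361 OPC-like, 1173 endothelial-like and 425 inhibitory neuron-like barcodes. PDGFB-WT gave 2290 microglia or macrophage-like, 1896 OPC-like and 636 astrocyte-like barcodes. All 14 microglia markers were above the other clusters in the microglia or macrophage-like clusters of Control and PDGFB-NLS, and 10 of 10 detected ones in PDGFB-WT. The OPC-like share was 2.52% in Control, 25.5% in the PDGFB-WT library and 12.4% in the PDGFB-NLS library. The classes depend on the clustering resolution: at 0.3 PDGFB-NLS had no OPC-like or inhibitory neuron-like cluster, and its 1785 barcodes outside the other named classes stayed unnamed. At 1.0 the astrocyte-like class of Control held 197 barcodes in place of 475, with 279 in an unnamed cluster. Thresholds for naming were set after seeing the data, and clusters that met none stayed unnamed.

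Among named classes of at least 300 barcodes, HOX chromatin was most open in microglia or macrophage-like nuclei and least in endothelial-like and oligodendrocyte-like nuclei. An unnamed Control cluster of 129 barcodes was higher, at 711.3 CPM. Over own peaks, microglia or macrophage-like nuclei had 488.3 CPM (468.9 to 508.2) in Control and 453.6 CPM (433.6 to 474.3) in PDGFB-NLS. Astrocyte-like nuclei had 356.7 CPM (333.6 to 381.0) and 351.2 CPM (329.5 to 373.9). Endothelial-like nuclei had 131.3 CPM (113.1 to 151.6) and 143.9 CPM (121.7 to 169.1). These 3 classes had the same order in the 2 libraries. Over the 11 regions called in all 3 libraries the order differed, with 188.4 CPM in astrocyte-like and 151.8 CPM in microglia or macrophage-like nuclei of Control. Peaks were called on whole libraries, and in Control microglia or macrophage-like nuclei gave 11607649 of 31588784 counts, so their regions had more chance to be called. The part of this in the order was not tested. Median counts per barcode also differed, 23240.5 in microglia or macrophage-like, 11368 in astrocyte-like, 3697 in endothelial-like and 23517.5 in oligodendrocyte-like nuclei of Control. Relative to the median of all genes, the microglia or macrophage-like class over the other barcodes had a log2 ratio of 1.11 in Control and 0.60 in PDGFB-NLS, and -0.15 in PDGFB-WT, where just 11 regions were called.

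Oligodendrocyte-like nuclei differed between the libraries. They had 129.0 CPM (117.3 to 141.6) in Control and 233.1 CPM (215.2 to 252.1) in PDGFB-NLS. Over the 38 regions called in both, they had 112.3 and 208.9 CPM, a log2 ratio of 0.90 (0.71 to 1.09) relative to the median of all genes in that class. By cluster the ratio was 0.48 in A, 1.46 in B, 1.29 in C and 1.02 in D. OPC-like nuclei had 183.8 and 286.8 CPM there, a ratio of 0.74 (0.35 to 1.14), from 56 barcodes in Control. Inhibitory neuron-like nuclei had 189.4 and 360.2 CPM, a ratio of 1.08 (0.55 to 1.65), from 28 barcodes in Control. The medians taken off rested on 141 genes for inhibitory neuron-like and 1175 for OPC-like nuclei, against 12288 for oligodendrocyte-like nuclei. Before the median is taken off, the inhibitory neuron-like ratio was 0.93 and the OPC-like ratio 0.64.

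In the same regions microglia or macrophage-like nuclei had 402.9 and 400.3 CPM, a ratio of -0.02 (-0.12 to 0.07), astrocyte-like nuclei 314.0 and 312.2 CPM, a ratio of -0.03 (-0.17 to 0.12), and endothelial-like nuclei 115.5 and 123.5 CPM, a ratio of 0.12 (-0.23 to 0.46). So the classes that were low in Control, other than the endothelial-like, were those that were higher in PDGFB-NLS. The oligodendrocyte-like class had 2.49 as the median log2 fold of its markers over other clusters in PDGFB-NLS and 3.67 in Control, and 72.9% and 80.6% of its counts in common regions. Their part in the HOX difference was not tested.

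In PDGFB-WT, over its 11 regions, microglia or macrophage-like nuclei had 125.3 CPM against 151.8 CPM in Control, a ratio of -0.34 (-0.62 to -0.07) relative to the median of all genes. Astrocyte-like nuclei had 100.8 against 188.4 CPM, a ratio of -1.06 (-1.71 to -0.46) from 46 HOX counts, and OPC-like nuclei had 84.2 against 103.9 CPM, a ratio of -0.19 (-0.79 to 0.43). The medians rested on 433 genes for astrocyte-like and 903 for OPC-like nuclei, against 8380 for microglia or macrophage-like nuclei. Before the median is taken off, the astrocyte-like ratio was -0.90 and the OPC-like ratio -0.30. An unnamed PDGFB-WT cluster of 1280 barcodes also had 13 of 13 detected astrocyte markers up, so the astrocyte-like value covers only part of such nuclei. The median log2 fold of these markers was 1.34 in that unnamed cluster and 0.90 in the astrocyte-like cluster. At resolution 0.3 PDGFB-WT had no astrocyte-like cluster, and a cluster of 1889 barcodes with a median of 1.54 stayed unnamed. The astrocyte-like ratio therefore depends on how these nuclei were split.

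**Figure D3:**
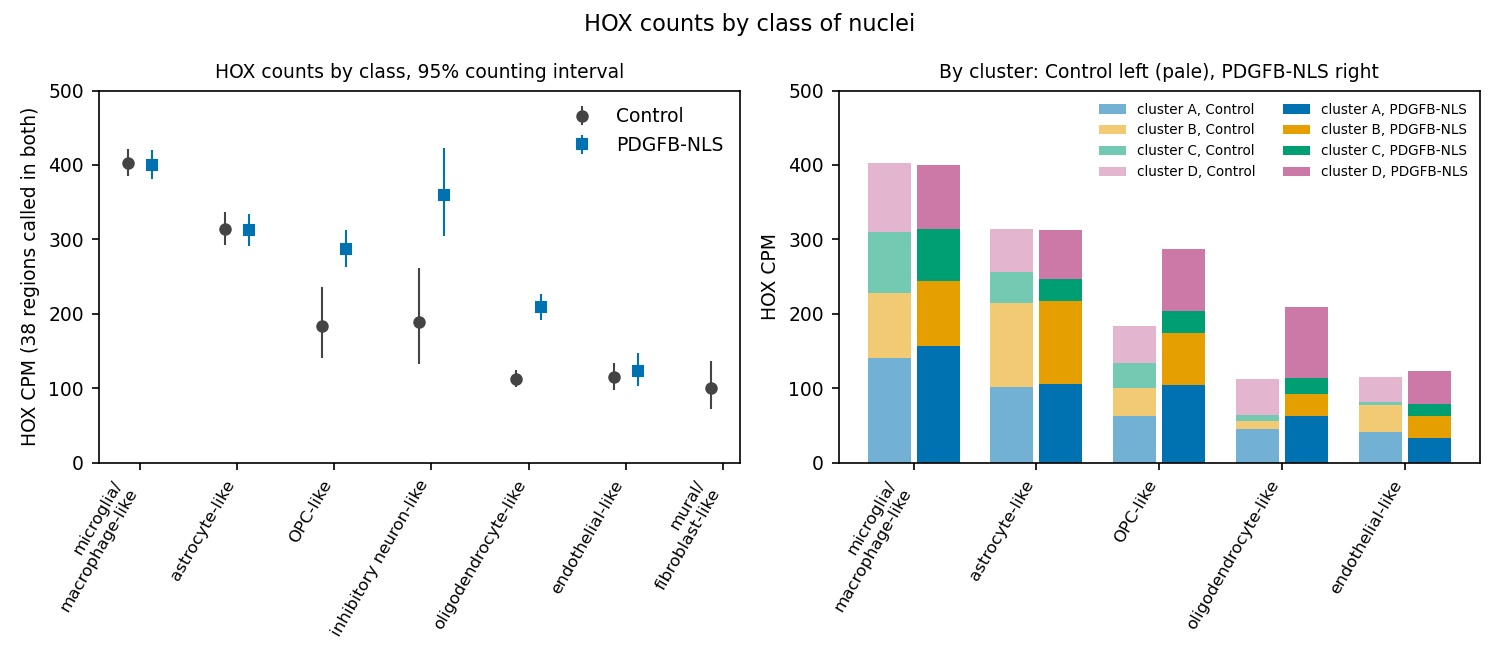
HOX CPM by class of nuclei in Control and PDGFB-NLS over the 38 regions called in both, with 95% counting intervals (left), and the same sums split by cluster A to D (right). Microglia or macrophage-like nuclei are highest in both libraries, at 402.9 and 400.3 CPM, and oligodendrocyte-like nuclei differ most in named classes of over 300 barcodes, at 112.3 and 208.9 CPM.

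The classes used the clusters differently. In microglia or macrophage-like nuclei of Control, clusters A to D had 158.7, 98.5, 113.8 and 117.1 CPM. Astrocyte-like nuclei had 108.5, 114.6, 58.8 and 74.8 CPM, with cluster B as high as cluster A. Oligodendrocyte-like nuclei had 49.8, 11.5, 15.4 and 52.4 CPM, with clusters A and D ahead of B and C. Against the other barcodes and relative to the median of all genes, cluster C stood highest in microglia or macrophage-like nuclei, at 1.63 in Control and 1.31 in PDGFB-NLS. Cluster B stood highest in astrocyte-like nuclei, at 1.08 and 0.82, and lowest in oligodendrocyte-like nuclei, at -2.95 and -1.47. Cluster D in oligodendrocyte-like nuclei had -0.82 and 0.21, below the median in 1 library and above it in the other.

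Most members past the minimum shared the microglia or macrophage-like pattern. Of members with 100 counts or more in the class and in the rest, 12 of 15 were past 1.5-fold higher in that class in Control (17.2% of all genes) and 15 of 20 in PDGFB-NLS (14.6%). None was past 1.5-fold lower in either (14% and 15.2%). A member low in the class needs more counts in all to reach this minimum, so the minimum favours higher members. Of 34 members with a peak in Control and 32 in PDGFB-NLS, those under it could not be called. Hoxa3, Hoxa5, Hoxa6, Hoxb3, Hoxb8, Hoxc6, Hoxc10, Hoxd9 and Hoxd12 were among the higher in both libraries.

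Astrocyte-like nuclei were past 1.5-fold higher at 5 of 7 members in Control, Hoxa3, Hoxa9, Hoxb6, Hoxb9 and Hoxc6 (14.7% of all genes), and at 3 of 8 in PDGFB-NLS, Hoxb5, Hoxb6 and Hoxb9 (11.6%), with none lower (15% and 11.4%). Oligodendrocyte-like nuclei were past 1.5-fold lower at 3 of 3 members in Control, Hoxa3, Hoxa9 and Hoxd3 (11.3%), with none higher (16.4%). In PDGFB-NLS 1 of 3 was lower, Hoxa3 (7.69%), and 1 was higher, Hoxd1 (15.5%). OPC-like nuclei of PDGFB-NLS were past 1.5-fold higher at 2 of 4 members, Hoxb8 and Hoxb9 (14.9%), with none lower (4.88%). Neighbours share peaks, so these members are not independent. The same minimum of counts in the class applied here, and it again favours members that are high in the class. A member low in astrocyte-like or OPC-like nuclei needs more counts in all to reach it. The shares called higher and the lack of lower members in these classes therefore say little about the members under it.

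A few single regions belonged almost wholly to 1 class. The region on Hoxb6 at chr11:96301533-96302455 had 45.3 CPM in astrocyte-like nuclei of Control and 0.81 CPM in the other barcodes (215 and 17 counts). In PDGFB-NLS the values were 46.0 and 2.02 CPM (243 and 39 counts). This is 56.1-fold and 22.7-fold, with log2 intervals of 4.87 to 6.91 and 3.83 to 5.25. In PDGFB-WT the same region had 0.95 CPM in microglia or macrophage-like nuclei (2 counts), 1.98 CPM in OPC-like nuclei (4 counts), 8.76 CPM in astrocyte-like nuclei (4 counts) and 21.5 CPM in the unnamed cluster of 1280 barcodes with astrocyte markers (33 counts). The 2 other unnamed clusters had 25.5 and 25.1 CPM, from 8 counts each (6.95 to 65.3 and 6.85 to 64.4). Thus a library-wide level of 8.999, 8.74 and 11.5 CPM at this region came mostly from 1 class of nuclei in Control and PDGFB-NLS.

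The region beside Hoxd1 at chr2:74767020-74767945, 1878 bp from the gene, was the counterpart in oligodendrocyte-like nuclei. It had 8.60 CPM in them in Control (56 counts, with 2 counts in all other barcodes) and 20.8 CPM in PDGFB-NLS (106 counts, with 8 in the others, 0.41 CPM). The log2 ratio was 6.37 (3.78 to 11.7) in Control and 5.66 (4.35 to 7.34) in PDGFB-NLS. Over the whole Hoxd1 window, oligodendrocyte-like nuclei had 18.3 and 35.5 CPM.

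Microglia or macrophage-like nuclei had 6 regions at least 3-fold above the other barcodes in both libraries. The Hoxc6 region at chr15:103009013-103009962 had 14.1 CPM against 0.85 in Control and 8.50 against 1.39 in PDGFB-NLS. The Hoxb4 region, which takes in 162 bases of the promoter printed above, had 11.3 against 1.28 CPM and 12.1 against 2.05 CPM. Hoxb4 is known for expanding blood stem cells. The region between Hoxa11 and Hoxa13 had 13.4 against 1.58 CPM and 11.9 against 2.23 CPM.

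The others were on Hoxa7 (16.0 against 1.46 and 12.5 against 3.74 CPM), on Hoxa10 over 177 bases of its printed promoter (16.7 against 4.32 and 22.5 against 6.94 CPM) and on Hoxc10 (35.5 against 9.62 and 29.0 against 7.12 CPM). Set against the genome, such regions were not frequent in the HOX clusters. The 6 were 15.8% of the 38 HOX regions with at least 30 counts in both libraries, where 20% of 89747 regions were called so. Astrocyte-like nuclei had 1 (2.63%, against 8.4%), oligodendrocyte-like nuclei 1 (2.63%, against 12%) and endothelial-like nuclei none (against 5.18%).

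The 2 strongest cluster A regions behaved otherwise. The region between Hoxa7 and Hoxa9 was open in every named class, from 6.01 to 28.9 CPM in Control and from 10.5 to 27.1 CPM in PDGFB-NLS. The region between Hoxa6 and Hoxa7 had 8.05 to 21.7 CPM and 6.28 to 23.4 CPM. Astrocyte-like, microglia or macrophage-like and OPC-like nuclei were at the upper end and endothelial-like nuclei at the lower end of both in PDGFB-NLS.

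**Figure D4:**
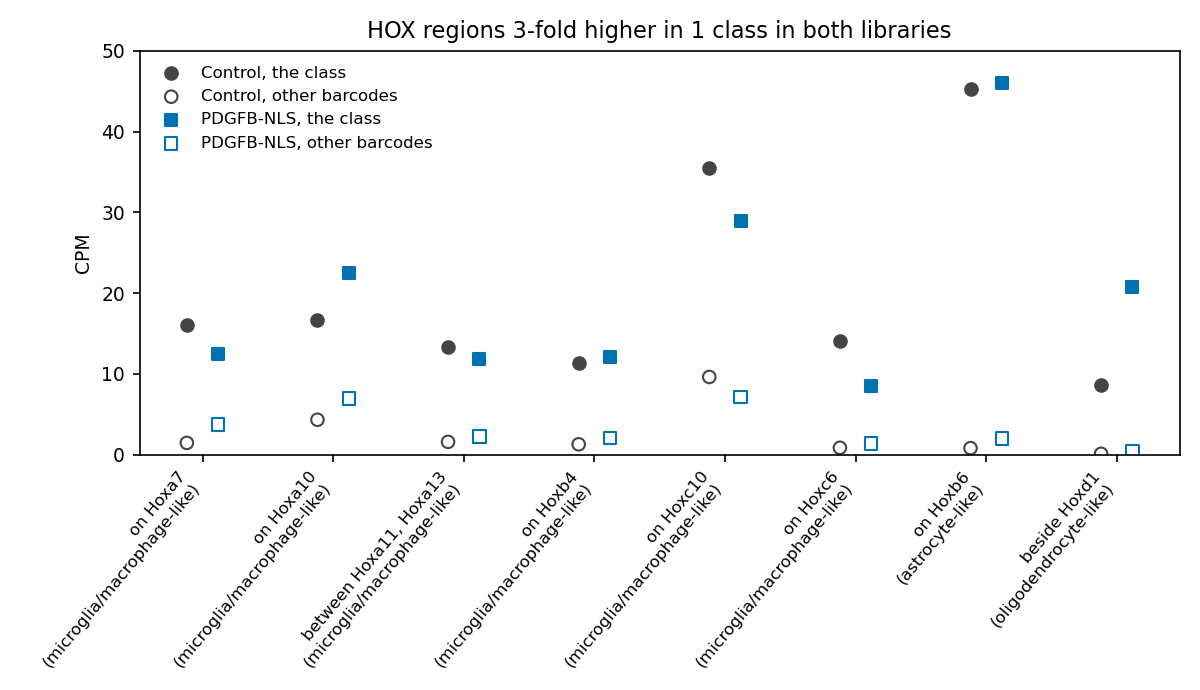
CPM of single HOX regions in a class (filled) and in the other barcodes of the same library (open), for Control and PDGFB-NLS. The Hoxb6 region in astrocyte-like nuclei, at 45.3 and 46.0 CPM, and the region beside Hoxd1 in oligodendrocyte-like nuclei, at 8.60 and 20.8 CPM, are the widest apart from the other barcodes.

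Genes that work with or on the HOX clusters had few loci past 1.5-fold. Against Control, 1 of 9 cofactor genes was past 1.5-fold higher in PDGFB-NLS, Pknox2 at 1.07 (174 against 82.0 CPM), and 1 was lower, Pbx2 at -0.69. Meis1 had 0.58 and the median was 0.21. Pknox2 was also the 1 cofactor past 1.5-fold in PDGFB-WT against Control, at 1.07, and the median there was 0.06. None passed in PDGFB-NLS against PDGFB-WT.

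Of 22 Polycomb genes, none was past 1.5-fold in PDGFB-NLS against Control, with Eed at 0.46, Ezh2, the H3K27 methyltransferase, at 0.39, Phc3 at -0.27 and a median of 0.00. In PDGFB-WT against Control, Eed was higher at 0.66 and Phc1 lower at -0.74, and Phc1 was higher at 0.71 in PDGFB-NLS against PDGFB-WT. Of 15 trithorax, demethylase and DOT1L complex genes none was past 1.5-fold in any comparison. Of the upstream patterning genes, Cyp26b1, which breaks down retinoic acid, was at -0.73 in PDGFB-WT against Control and at 0.95 in PDGFB-NLS against PDGFB-WT, and it was the 1 of 8 past 1.5-fold in each. None of 10 passed in PDGFB-NLS against Control. The genes flanking the clusters had 0 of 15 past 1.5-fold in PDGFB-NLS against Control and 0 of 10 in both other comparisons, with medians of -0.03, -0.00 and -0.10.

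A list of other homeobox genes, most of them of the forebrain and midbrain, where HOX genes are not used, had more. Meox1 and Meox2 were also in this list. In PDGFB-NLS against Control 5 of 19 were past 1.5-fold higher and 1 lower, with Six3 at 2.24, Lmx1a at 1.39, Dlx2 at -0.61 and a median of 0.33. In PDGFB-WT against Control 3 of 10 were higher and 1 lower, with Emx2 at 1.22, Pou3f2 at 1.20 and Lmx1b at -0.89. In PDGFB-NLS against PDGFB-WT 2 of 10 were higher and 3 lower, with Lmx1b at 1.70, Pax6 at 0.83, Emx2 at -0.69 and Pou3f2 at -0.67. These lists were chosen with earlier results of the data known, and the shares of all genes given above are their background.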

How the data were processed

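Single-cell ATAC-seq counts were deposited as 3 matrices of peaks by barcodes, 1 per group, taken from the sample titles. Per the file headers they are output of cellranger-atac 2.1.0, while Cell Ranger 8 and mm10 are named in the submitters' processing notes. The deposited counts are raw counts of cut ends per peak and barcode, with the value 2 in 72.9%, 89.4% and 87.9% of entries in Control, PDGFB-WT and PDGFB-NLS. The settings of the peak caller were not given in the sources used here.

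A minimum of 200 counts per barcode kept 2226 of 2267, 7441 of 7511 and 10996 of 10996. Peaks were merged across libraries by overlap, and counts were scaled to 1000000 counts in the 47450 regions called in all 3. Gene positions came from RefSeq GRCm38.p6. Log2 ratios of CPM were set relative to the median of all genes with 100 counts or more in both libraries compared, and calls used 1.5-fold. Intervals are Clopper-Pearson on the conditional binomial and exact Poisson, at 95%, computed on fragments with a value v read as (v + 1) // 2. The ratio code was tested on simulated data.

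Barcodes were clustered by Leiden at resolution 0.6 on singular vectors of TF-IDF weighted peaks without the HOX regions (Python 3.11.15, numpy 2.4.6, pandas 2.3.3, scipy 1.17.1, scikit-learn 1.9.0, igraph 0.11.9, leidenalg 0.10.2, matplotlib 3.10.9). No doublet caller was run. In place of it, the deepest 5% of barcodes were left out as an alternative. Members, lists and rules were chosen with earlier results of these data known. Any HOX member could be named, with full values for those with 100 counts in every library and for the highest and lowest ratios, and the 2 highest and 2 lowest genes of a list, of which 1 is not reported here.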

Additional observations from a re-analysis of the deposited data

How the results depend on the processing

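With 1 library per group, leaving out a replicate could not be done. No paired analysis was possible because each group has 1 library and the labels number it replicate 1. Values here are before the median of all genes is taken off. Of 284 alternative values over 37 results, 206 moved by less than the counting interval or by under 1.5 times for counts, 69 moved by more and 9 changed sign.

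The regions counted mattered most. Over all clusters PDGFB-WT over Control was -1.47 and became -0.049 in regions called in all 3 libraries or in both compared (the latter chosen after seeing the data), -1.76 with each entry capped to 0 or 1, -1.23 on a scale of all own peaks and -1.26 with the median set to 0. PDGFB-NLS over Control was 0.11 and became 0.20 in regions called in all 3, 0.18 in regions called in both, 0.036 with gene bodies alone and -0.11 when capped. PDGFB-NLS over PDGFB-WT was 1.58 and became 0.25 in regions called in all 3 or in both, 1.29 on own peaks and 1.36 with the median set to 0. Reversed were cluster A (0.064) and cluster C (0.033) in PDGFB-WT over Control and cluster C (-0.088) in PDGFB-NLS over PDGFB-WT, all in regions called in all 3 or in both, and cluster B in PDGFB-NLS over Control with gene bodies alone (-0.14) and when capped (-0.041).

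Members past 1.5-fold higher in PDGFB-NLS against Control were 6, and 2 in regions called in all 3 or in both, 1 on fragments and 1 when capped, where 18 members reached the minimum in place of 26. Those lower were 2, and 5 with a minimum of 30 counts or none, and 0 in regions called in all 3 or in both. In PDGFB-WT against Control 0 were higher, and 2 with a minimum of 30 or none. There 1 was lower, and 6 with a minimum of 30, 7 with none, and 0 in regions called in all 3 or in both, and 0 on fragments and when capped, where no member reached the minimum and the count says nothing. In PDGFB-NLS against PDGFB-WT 1 was higher, and 6 with a minimum of 30, 7 with none, and 0 in the same 4 settings. Shares of all genes are given above for the main setting and for regions called in both. For the other settings they are not given, so member counts there have no background and show only how the count depends on the setting. The microglia or macrophage-like class over the other barcodes was 1.15 in Control and 0.64 in PDGFB-NLS, and 0.60 and 0.47 in regions called in all 3. The cause was not tested beyond what each setting leaves out. Depth limits PDGFB-WT, where 3 members reached 100 counts.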

Other observations

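Barcodes left unnamed also held HOX counts. In Control an unnamed cluster of 129 barcodes had 711.3 CPM (614.3 to 819.4) over the HOX regions, above every named class of that library, with 58.3% of its counts in regions called in all 3 libraries. Another of 26 barcodes had 355.4 CPM. In PDGFB-WT unnamed clusters of 1280, 734 and 605 barcodes had 121.2, 181.8 and 166.5 CPM over the 11 regions called there. A HOX count was present in 60.4% of Control barcodes, 5.2% of PDGFB-WT barcodes and 30.8% of PDGFB-NLS barcodes, at median depths of 13054, 821 and 2767.5 counts, so these shares are not levels.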
